A study of Mus musculus with 4 samples.

Results

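Cell cycle inhibitors and p53 targets were followed as 10 genes, Cdkn1a, Cdkn1b, Cdkn2c, Cdkn2d, Btg1, Btg2, Gadd45a, Gadd45b, Ccng1 and Mdm2, in gamma delta intraepithelial lymphocytes, which are T cells that live within the gut epithelium. The genes were chosen by name, with earlier results of these data known. Every probe set whose single gene symbol in the platform annotation is one of them was read. This gave 21 of the 34945 probe sets with 1 symbol. The cells came by sorting from colons of C57b/6 mice that had been raised conventionally. The DSS group had 2 samples from mice given 2% dextran sulfate sodium, a polymer that damages the lining of the colon, for 5 days, followed by 3 days on normal drinking water. The untreated group had 2 samples from mice with no treatment. Each sample was read on 1 array of 45101 probe sets in 1 colour. The labels name no age and do not say whether samples came from separate animals or from pools, so a p-value here measures no more than the spread between arrays of a group, and that spread may be technical.

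Cells leave or stay out of division through proteins that block the cyclin-dependent kinases. The Cip/Kip proteins p21 (Cdkn1a) and p27 (Cdkn1b) bind cyclin-kinase complexes, and the INK4 proteins p18 (Cdkn2c) and p19 (Cdkn2d) bind Cdk4 and Cdk6. The transcription factor p53 responds to DNA damage and other stress by inducing Cdkn1a, Gadd45a, Btg2, Ccng1 and its own inhibitor Mdm2, while resting T cells keep Cdkn1b and Btg1 high and lower them on activation.

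In the DSS samples, 4 of the 10 genes, Cdkn1a, Cdkn2d, Cdkn2c and Gadd45a, had higher signals on both arrays than on either untreated array when each gene was read on its brightest probe set with no filter on low signals. No gene had lower signals on both DSS arrays by that reading, and the other 6 overlapped. Over all 18193 genes read in that way, 14.8% were higher and 25.1% lower. As the 10 genes were chosen with earlier results of these data known, their counts beside such shares are a description. Gadd45a lay below the median of every array and was dropped by the filter on low signals, which left 9 tested genes. Limma called 0 of these 9 genes at an adjusted p of 0.05, as it called 0 of all 12424 genes (0%). At an unadjusted p under 0.05 limma had 1 of the 9 higher, Cdkn1a, and 0 lower, against 3.71% of all genes higher and 3.81% lower. Among the 9 tested genes 3 were higher on both DSS arrays and 0 lower, where 17.2% of all genes were higher and 23.8% lower in that way. The median log2 difference of DSS minus untreated was 0.27 over the 9 genes and -0.07 over all 12424. With 2 arrays a group, the smallest two-sided p of an exact permutation test of a single value is 0.333, so no such test could pass.

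Across all 21 probe sets, with no filter on low signals, 6 had higher and 4 had lower signals on both DSS arrays than on either untreated array, and 11 overlapped. These are shares of 28.6% higher and 19% lower, beside 14.5% and 24.7% of all 34945 probe sets. Quantile normalization gave 6 higher and 3 lower, beside 18.1% and 18.6% of all probe sets. Scaling the arrays to a common median gave 10 higher and 2 lower, beside 24.1% and 15.2%. The balance of higher against lower probe sets thus moved with the scaling, for these genes and for all probe sets. In the limma fit over all 24483 probe sets kept by the filter, 0 of the 17 kept probe sets passed (0% of all), and the smallest adjusted p was 0.666. At an unadjusted p under 0.05 that fit had 1 of the 17 higher, on Cdkn1a, and 1 lower, on Gadd45b, beside 3.27% of all kept probe sets higher and 3.99% lower.

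**Figure D1:**
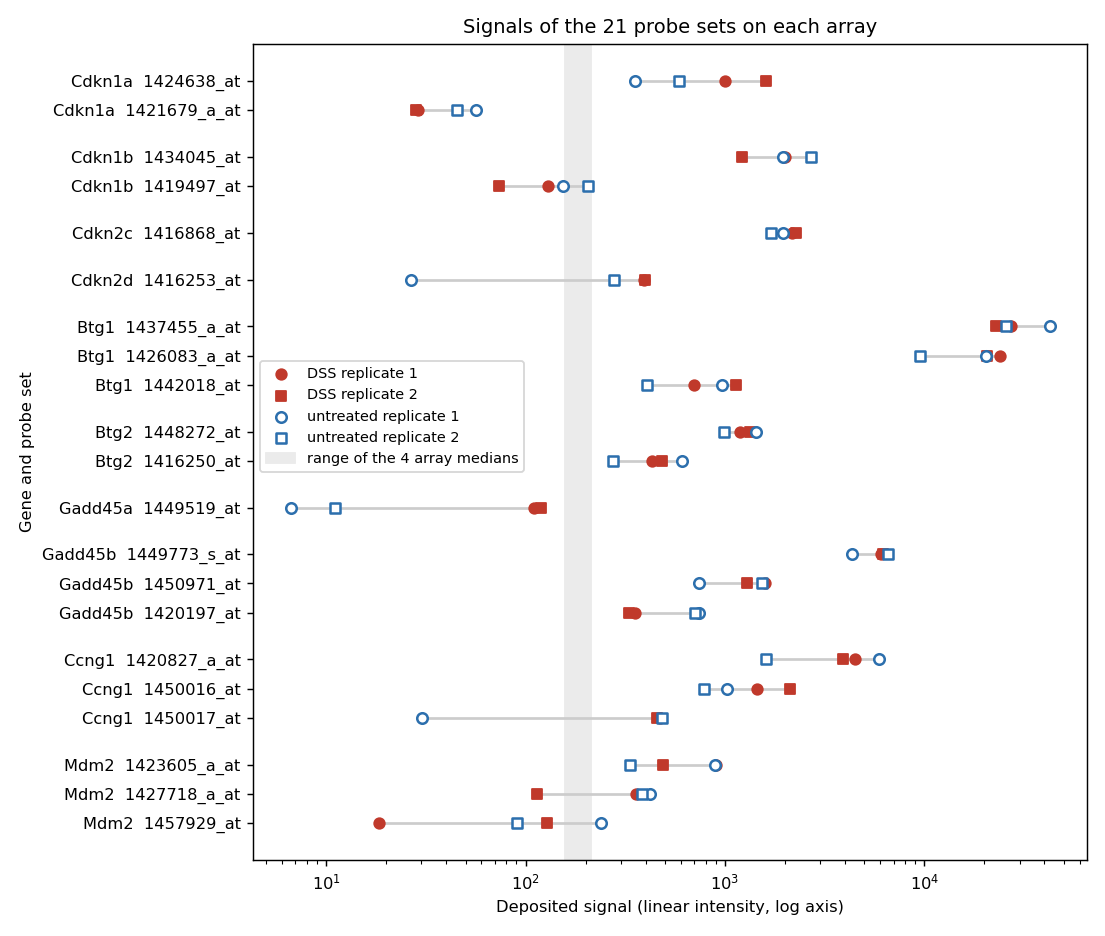
Deposited signals of the 21 probe sets (rows, by gene) on a log axis of linear intensity. Filled red symbols are the 2 DSS arrays, open blue symbols the 2 untreated arrays, circles replicate 1 and squares replicate 2, and the grey band spans the 4 array medians. Cdkn1a on its brighter probe set, Cdkn2d, Cdkn2c, Gadd45a, Btg1 on 1426083_a_at and Ccng1 on 1450016_at have both red symbols to the right of both blue ones. Both red symbols are to the left for Cdkn1a on 1421679_a_at, Cdkn1b on 1419497_at, Gadd45b on 1420197_at and Mdm2 on 1427718_a_at.

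Arrays differed as a whole in ways that go with the groups. The deposited arrays share a trimmed mean, but their medians were 157.1 and 163.3 on the DSS arrays, against 193.8 and 213.9 on the untreated arrays. The hybridisation controls, transcripts added to each sample, averaged 14372 and 15271 on the DSS arrays, against 82269 and 59067 on the untreated arrays, so sample group and array processing cannot be told apart. The share of an array's total signal taken by its 100 brightest probe sets was 12.9% and 15.0% in DSS samples, against 25.5% and 24.2% in untreated samples. The 3' to 5' ratio of the Actb control probe sets was 16.0 and 10.6 in DSS samples, against 14.7 and 23.0 in untreated samples. Over the log2 values of the 12424 tested genes, which are not independent, the DSS arrays correlated at 0.92 with each other, the untreated arrays at 0.794, and a DSS with an untreated array at 0.817 to 0.854, so the untreated pair was the least alike. All 9 T cell and intraepithelial lymphocyte markers read here lay above the array median on all 4 arrays, with summed signals of 225846 and 228612 in DSS samples and 417712 and 325446 in untreated samples. Of these 9, 2 (Cd3d and Cd3g) were higher and 3 (Cd8a, Itgae and Gzmb) lower on both DSS arrays. Over all 18193 genes, with no filter on low signals, 14.8% were higher and 25.1% lower in that way. Those shares are the background for each marker list here. All 10 macrophage markers were higher on both DSS arrays, and 6 of them lay above the array median on all 4 arrays. Their summed signals were 62876 and 87638 in DSS samples and 9518 and 3105 in untreated samples, and 0 markers were at 0. Their part in the values below was not tested, and in these bulk samples fewer cells of a type and less RNA per cell cannot be told apart. Signals of the 9 neutrophil markers summed to 926 and 2216 in DSS samples and 1593 and 1424 in untreated samples. Of these markers 0 were higher and 2 (Mmp8 and Mmp9) lower on both DSS arrays, and only 1 lay above the array median on all 4 arrays. Signals of the 8 epithelial markers summed to 12203 and 9793 in DSS samples and 9250 and 6610 in untreated samples. Of the epithelial markers 2 were higher and 1 lower on both DSS arrays, and 4 lay above the array median on all 4 arrays.

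The p53 protein binds pairs of a short motif, the p53 half-site, and the stretches below are shown because they hold it in the 250 bases before a transcript start of these genes. The half-site, of 10 bases, reads the same on both strands as a pattern, so 1 search covers both. RefSeq promoter windows (GRCm38.p6) were matched by symbol for all 10 genes, in 12 windows, as Cdkn1a and Cdkn2c each have more than 1 start. A half-site was found in 5 of the 12 windows, those of Cdkn1a (the upstream start), Gadd45a, Cdkn2d, Ccng1 and Mdm2, and in 7.13% of all 32851 windows. Capitals mark the half-site, and every stretch runs 5′ to 3′ on the strand of its gene.
Cdkn1a, chr17:29090729-29090978, plus strand: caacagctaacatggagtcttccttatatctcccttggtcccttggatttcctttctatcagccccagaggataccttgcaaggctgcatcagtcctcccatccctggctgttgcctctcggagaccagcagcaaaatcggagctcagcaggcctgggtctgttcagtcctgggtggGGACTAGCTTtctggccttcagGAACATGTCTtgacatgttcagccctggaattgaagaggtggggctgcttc
Gadd45a, chr6:67037413-67037472, minus strand: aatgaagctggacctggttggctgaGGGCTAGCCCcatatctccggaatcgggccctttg
Cdkn2d, chr9:21291277-21291336, minus strand: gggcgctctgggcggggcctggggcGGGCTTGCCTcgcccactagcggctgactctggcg
Ccng1, chr11:40755437-40755496, minus strand: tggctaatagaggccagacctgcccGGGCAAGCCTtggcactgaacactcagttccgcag
Mdm2, chr10:117710910-117710969, minus strand: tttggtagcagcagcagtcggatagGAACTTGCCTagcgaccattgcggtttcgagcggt

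The Cdkn1a window is the only one of the 12 with a pair of half-sites, which begin 73 and 51 bases before the start, while the others begin 40 (Gadd45a), 102 (Cdkn2d), 185 (Ccng1) and 186 (Mdm2) bases before it. Pairs up to 13 bases apart were found in 0.064% of all windows. The motif was chosen with the signals known, so its presence is given as a description. Over all genes the median log2 difference was -0.04 over 727 tested genes with a half-site and -0.07 over 9310 without, and 19.9% of the first and 17.5% of the second were higher on both DSS arrays. A half-site by letters is not a bound site, and no match says only that the letters are not in this window.

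Cdkn1a encodes p21, which blocks cyclin-kinase complexes and binds the replication clamp PCNA. On the probe set 1424638_at it had signals of 1004 and 1603 in DSS samples, against 353 and 591 in untreated samples. Both DSS arrays lay above both untreated arrays, and the log2 difference of 1.41 ± 0.46 (SE, n = 2 per group) was larger than the log2 gap between replicates, 0.66 in DSS and 0.69 in untreated samples. By limma its adjusted p was 0.649 and its unadjusted p 0.0181. Quantile normalization gave 1.44 and common-median scaling 1.74. The other Cdkn1a probe set, 1421679_a_at, had signals of 28.7 and 28.3 in DSS samples, against 56.6 and 45.3 in untreated samples, all far below the array medians. It ran the other way, at -0.45, and did not pass the filter on low signals.

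Cdkn1b encodes p27, the inhibitor that marks resting lymphocytes. Its brighter probe set had signals of 1989 and 1220 in DSS samples, against 1945 and 2700 in untreated samples. One DSS array lay within the untreated range, just above untreated replicate 1, and the other below both. The log2 difference was -0.55 ± 0.43, smaller than the gap of 0.69 between the DSS replicates. A dimmer probe set, 1419497_at, with 130 and 73.5 in DSS samples against 154 and 205 in untreated samples, was lower on both DSS arrays at -0.69 and was below every array median. With quantile normalization the brighter probe set was lower on both DSS arrays, at -0.64, and the dimmer one overlapped. With common-median scaling both probe sets overlapped. Within the Cip/Kip pair the estimates thus had opposite signs on the brighter probe sets, and the difference between them was not tested.

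Both INK4 members were higher on both DSS arrays, by unlike amounts. Cdkn2c, which encodes p18, had signals of 2163 and 2273 in DSS samples, against 1943 and 1698 in untreated samples, a log2 difference of 0.28 ± 0.37. Its arrays lay close together, with replicate gaps of 0.07 in DSS and 0.19 in untreated samples, but the difference was below its standard error by limma (adjusted p = 0.836). Cdkn2d, which encodes p19, had signals of 393 and 399 in DSS samples, against 26.6 and 277 in untreated samples. The DSS arrays agreed within 0.02 log2, and the untreated arrays were 2.40 log2 apart. The log2 difference of 1.67 ± 0.86 was smaller than that gap (adjusted p = 0.654), and it was 0.47 without untreated replicate 1 and 2.87 without untreated replicate 2.

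**Figure D2:**
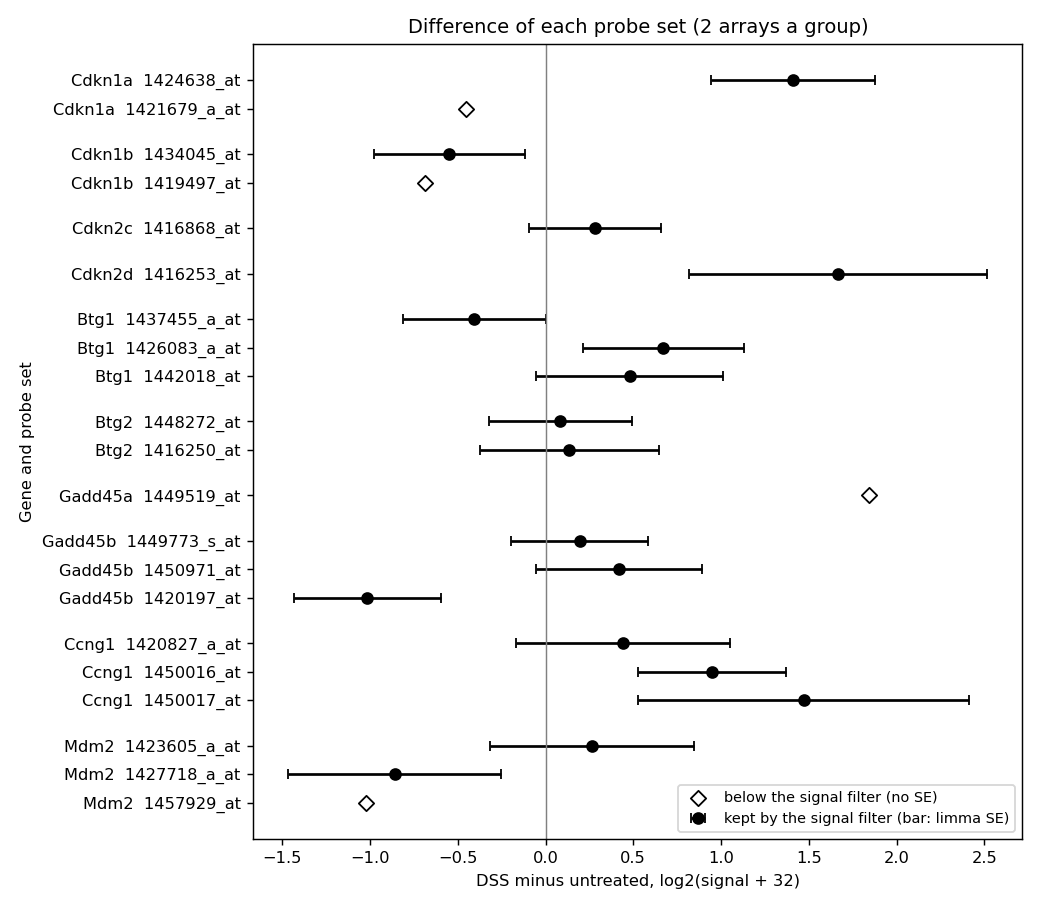
Log2 difference of DSS minus untreated for each of the 21 probe sets, on the log2(signal + 32) scale. Filled circles with bars are the 17 probe sets kept by the signal filter with limma's standard error, and open diamonds are the 4 below it. Probe sets of 1 gene fall on both sides of 0 for Cdkn1a, Btg1, Gadd45b and Mdm2, whereas the 3 of Ccng1 and the 2 of Btg2 lie above 0 and the 2 of Cdkn1b below it.

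Btg1 and Btg2 belong to the BTG/Tob family of antiproliferative proteins, which bind the CCR4-NOT deadenylase and hold T cells in quiescence. The Btg1 probe set 1437455_a_at had signals of 27185 and 22762 in DSS samples, against 42418 and 25577 in untreated samples, and differed by -0.40 ± 0.40. A second bright probe set, 1426083_a_at, had 23950 and 20613 in DSS samples, against 20352 and 9551 in untreated samples. It differed by 0.67 ± 0.46, with both DSS arrays just above both untreated arrays. With quantile normalization its groups overlapped, at 0.73, and with common-median scaling both DSS arrays stayed higher, at 1.02. The third, 1442018_at, had 695 and 1137 in DSS samples, against 962 and 408 in untreated samples, and overlapped at 0.48 ± 0.53. The probe sets of Btg1 therefore gave no single direction. On all of them untreated replicate 1 was brighter than untreated replicate 2, by 0.73 to 1.17 log2.

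Btg2, the p53-induced member of the family, had signals of 1185 and 1339 in DSS samples, against 1422 and 989 in untreated samples. The DSS arrays lay between the untreated arrays, and the log2 difference was 0.08 ± 0.40 (limma adjusted p = 0.959). Its second probe set, 1416250_at, showed the same arrangement, with 428 and 481 in DSS samples against 606 and 274 in untreated samples, a difference of 0.14 ± 0.51. A difference near these estimates was not detectable with 2 arrays a group.

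Gadd45a and Gadd45b encode small stress proteins that bind PCNA and p21 and can activate the p38 kinase pathway, Gadd45a being a p53 target and Gadd45b a gene induced by NF-kB and cytokines. Gadd45a had signals of 110 and 119 in DSS samples, against 6.67 and 11.1 in untreated samples. Both DSS arrays were far above both untreated arrays, yet even they were below the medians of their arrays, 157.1 and 163.3. The log2 difference on the log2(signal + 32) scale was 1.84 as deposited, 2.03 with quantile normalization and 2.02 with arrays scaled to a common median. No detection calls were used here, so whether the untreated signals differ from background is not known.

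Gadd45b had signals of 6042 and 6204 in DSS samples, against 4334 and 6588 in untreated samples, on 1449773_s_at, a kind of probe set that can bind related transcripts. The groups overlapped, at a log2 difference of 0.20 ± 0.39. A second probe set, 1450971_at, overlapped too, with 1586 and 1293 in DSS samples against 739 and 1525 in untreated samples (0.42 ± 0.47). With common-median scaling both of these probe sets were higher on both DSS arrays, at 0.54 and 0.76. With quantile normalization both still overlapped. The third, 1420197_at, went the other way, with 353 and 332 in DSS samples against 745 and 703 in untreated samples. Replicates of each group were 0.08 log2 apart on it, and the difference was -1.01 ± 0.42, with an unadjusted p of 0.0439 and an adjusted p of 0.666 by limma. Both of its groups lay above their array medians.

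Ccng1 encodes cyclin G1, a p53 target that brings a phosphatase to Mdm2. Its brightest probe set had signals of 4498 and 3908 in DSS samples, against 5887 and 1601 in untreated samples, and the DSS arrays lay between the untreated ones (0.44 ± 0.62). The probe set 1450016_at had 1451 and 2130 in DSS samples, against 1024 and 782 in untreated samples. On it both DSS arrays were higher, at 0.95 ± 0.42, with an adjusted p of 0.666 by limma. On the third, 1450017_at, untreated replicate 1 stood alone, with 474 and 454 in DSS samples against 30.1 and 484 in untreated samples. The same untreated array was thus the brightest of the 4 on one Ccng1 probe set and the dimmest on another. With quantile normalization and with common-median scaling, 1450016_at and 1450017_at were both higher on both DSS arrays, while the brightest probe set overlapped. Averaging the probe sets of Ccng1 gave 0.95, with both DSS arrays higher.

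Mdm2 encodes the ubiquitin ligase that degrades p53. Its signals on 1423605_a_at were 903 and 489 in DSS samples, against 893 and 332 in untreated samples. Each group held 1 brighter and 1 much dimmer array, at like levels in both groups, and the difference of 0.27 ± 0.58 was smaller than the replicate gaps of 0.84 in DSS and 1.34 in untreated samples. The probe set 1427718_a_at had 357 and 114 in DSS samples, against 418 and 384 in untreated samples, lower on both DSS arrays at -0.86 ± 0.61. Its groups overlapped with quantile normalization and with common-median scaling. On the dimmest, 1457929_at, signals were 18.5 and 129 in DSS samples, against 239 and 91.0 in untreated samples. The p53 targets Cdkn1a, Gadd45a, Ccng1, Btg2 and Mdm2 therefore did not share 1 arrangement of the arrays. On their brightest probe sets, as deposited, the first pair had both DSS arrays higher, and the others overlapped. On the same probe sets with common-median scaling, Btg2 was higher on both DSS arrays too, while Ccng1 and Mdm2 still overlapped. Among the dimmer probe sets with that scaling, those of Ccng1 were higher, that of Cdkn1a lower, and those of Btg2 and Mdm2 overlapped.

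The untreated replicates were further apart than the DSS replicates on 15 of the 21 probe sets and for 8 of the 9 tested genes, and for 8395 of all 12424 genes. The median gap between replicates was 0.20 log2 in DSS and 0.69 in untreated samples for the 9 genes, and 0.36 in DSS and 0.68 in untreated samples for all genes. Calls followed which untreated array was used, with the lone untreated array assumed to vary like the DSS arrays. Without untreated replicate 1, limma called 1 of the 9 genes, Ccng1 at 1.37 (adjusted p = 0.00514), where 14.4% of all genes were called. Without untreated replicate 2 it called 2, Cdkn1a at 1.76 (adjusted p = 0.0088) and Cdkn2d at 2.87 (adjusted p = 0.0258), where 6.08% of all genes were called. In the fit over probe sets the counts were 3 of 17 in both cases, beside 11.3% of all kept probe sets without untreated replicate 1 and 5.4% without untreated replicate 2. Limma with a block for the replicate number called 0.539% of all genes and 0 of the 9.

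**Figure D3:**
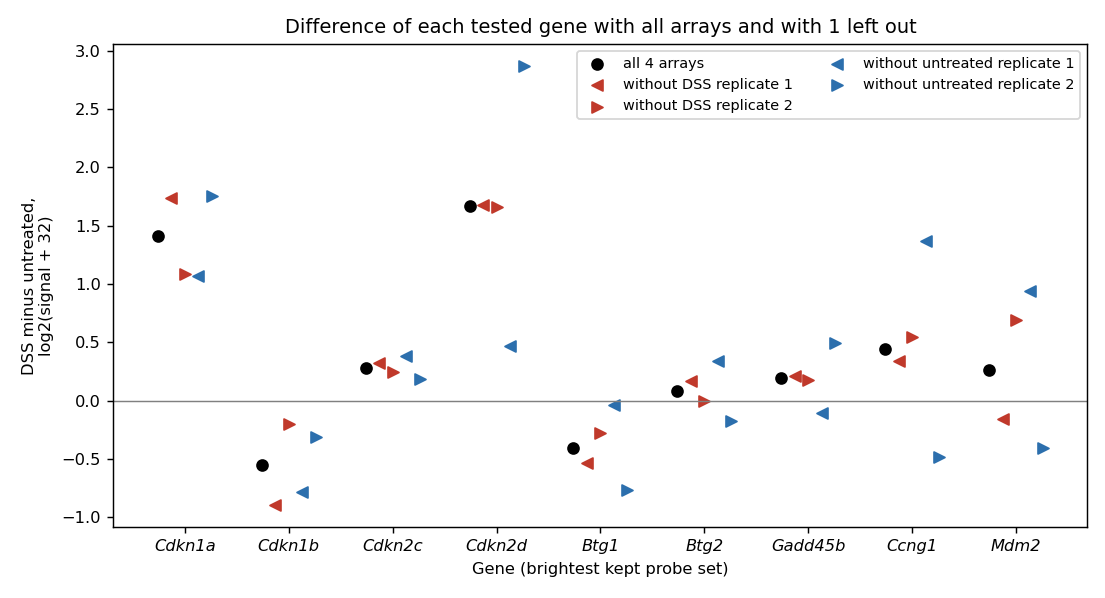
Log2 difference of DSS minus untreated for the 9 tested genes with all 4 arrays (black) and with 1 array left out (red, a DSS array; blue, an untreated array). Cdkn1a, Cdkn2d and Cdkn2c stay above 0 and Cdkn1b and Btg1 below 0 in all 5 fits shown, while Btg2, Gadd45b, Ccng1 and Mdm2 cross 0, Ccng1 between -0.49 and 1.37.

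The other genes of these pathways were read from 3 lists, whose members were chosen with earlier results of these data known. Among 12 tested inhibitors and antiproliferative genes besides the members, limma called 0, and 3 were higher and 2 lower on both DSS arrays (median log2 difference 0.37). The shares over all 12424 genes, 17.2% higher and 23.8% lower, are the background for this count and for those of the next lists. Pkmyt1, a kinase that holds Cdk1 inactive, had signals of 102 and 610 in DSS samples, against 657 and 2295 in untreated samples (-2.11 ± 0.86), but overlapped on its other probe set at -0.13. Gadd45gip1, a mitochondrial protein that can bind Gadd45 proteins, had 92.3 and 166 in DSS samples, against 334 and 307 in untreated samples (-1.17 ± 0.61), and overlapped on its other probe set at -0.13. Tob2, of the BTG/Tob family, had 2354 and 1317 in DSS samples, against 855 and 948 in untreated samples (0.94 ± 0.44), and its other probe sets lay between -0.70 and 1.23. The third Gadd45 gene, Gadd45g, had 556 and 715 in DSS samples, against 355 and 485 in untreated samples (0.57 ± 0.42). As deposited, it and Gadd45a were higher on both DSS arrays while Gadd45b overlapped on its brightest probe set. With common-median scaling that Gadd45b probe set was higher on both DSS arrays too.

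Of the 19 tested other p53 pathway genes limma called 0. On both DSS arrays 4 were higher and 2 lower, beside 17.2% and 23.8% of all genes, and the median log2 difference was 0.07. Atm, the kinase that activates p53 after DNA breaks, had signals of 901 and 1011 in DSS samples, against 37.6 and 347 in untreated samples (2.60 ± 0.78). Its other probe set had the opposite sign, at -1.08, with groups that overlapped. Plk3, a stress-responsive polo-like kinase, had 335 and 313 in DSS samples, against 15.7 and 162 in untreated samples (1.89 ± 0.88). It passed the filter on low signals through the DSS arrays alone, which favours a higher DSS signal, so its place among the 4 supports nothing. Apaf1, which assembles the apoptosome, had 1031 and 429 in DSS samples, against 383 and 200 in untreated samples (1.17 ± 0.57). On its other probe set the difference was -1.19 and the groups overlapped. Sesn2, a p53-induced sestrin, was lower, with 161 and 74.3 in DSS samples against 569 and 163 in untreated samples (-1.26 ± 0.78). Its other probe set was also lower on both DSS arrays, at -1.95. Atm and Plk3, like Cdkn2d, had their lowest signal on untreated replicate 1.

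Cyclins, kinases and partners that the inhibitors act on gave 14 tested genes, of which limma called 0, with 5 higher and 3 lower on both DSS arrays, beside 17.2% and 23.8% of all genes (median log2 difference 0.38). Pcna, the replication clamp that p21 and the Gadd45 proteins bind, had signals of 7740 and 8306 in DSS samples, against 3507 and 2407 in untreated samples, a log2 difference of 1.45 ± 0.39 (limma adjusted p = 0.649). Cdk1, the mitotic kinase, had 620 and 934 in DSS samples, against 334 and 461 in untreated samples (0.90 ± 0.44). E2f2, a transcription factor of the G1 to S transition, had 609 and 595 in DSS samples, against 258 and 310 in untreated samples (1.01 ± 0.42). Its other probe set, below the signal filter, overlapped at 0.47. Ccnd2, the cyclin D2 that INK4 proteins keep from its kinases, was lower on 1455956_x_at, with 31898 and 23952 in DSS samples against 53158 and 52411 in untreated samples (-0.93 ± 0.36), and its other probe sets ranged from -1.52 to 0.52. The inhibitor Cdkn1a and the clamp it binds, Pcna, were therefore both higher on both DSS arrays, and limma called neither.

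**Figure D4:**
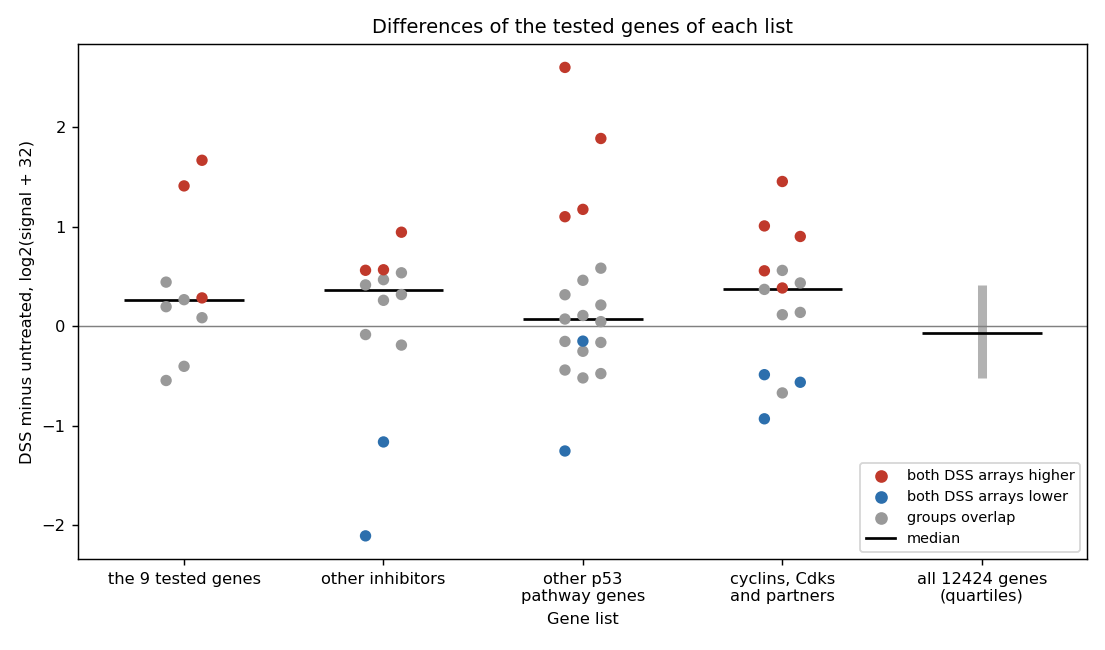
Log2 differences of DSS minus untreated for the tested genes of each list, 1 point a gene, with the list's median as a black line, and the quartiles of all 12424 genes at the right (-0.52 to 0.42). Red points are genes with both DSS arrays above both untreated arrays, blue points below, grey points overlapping. The 9 tested genes run from -0.55 to 1.67 around a median of 0.27, and every list has points on both sides of 0.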

How the data were processed

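Per the submitters' processing notes the authors made the signals with GCOS, of a version and with settings not given in the sources used here. Deposited values are linear intensities, 1 per probe set and array, scaled to a trimmed mean of 500 (2% dropped at each end, from the values). A platform table gave 34945 probe sets 1 gene symbol, besides the control probe sets. Signals were analysed as log2(signal + 32), which understates changes of dim genes. Probe sets above the array median on 2 or more of the 4 arrays were kept, and each gene was read on the kept one with the highest mean log2 value. DSS and untreated samples were compared in R 4.3.3 by limma 3.58.1 (lmFit, eBayes with trend) over all 12424 genes, and over all 24483 kept probe sets, with Benjamini-Hochberg adjustment at 0.05. The brightest probe sets carry errors from the first fit and other probe sets from the second. The members and lists were chosen with earlier results of these data known. All probe sets of the members were named, and from each other list up to 4 tested genes with the largest absolute difference among those whose groups do not overlap. The number of arrays limits the precision. Alternatives covered scaling, pseudocount, filter, probe sets, variance model, replicate block and leaving out each array.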

Additional observations from a re-analysis of the deposited data

How the results depend on the processing

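With all 4 arrays, limma called 0 of the tested members under every alternative for scaling, filter, pseudocount, probe sets, variance model and block. Those were 9 genes, except 10 with no filter on low signals, Gadd45a included, and 8 at a mean signal of at least 500. With no filter, the smallest limma adjusted p was 0.7 over the 10 genes and 0.764 over the 21 probe sets. Over all genes it called 0 as analysed, 3 when the probe sets of a gene were averaged and 67 with the replicate number as a block, and 0 to 1791 with 1 array left out. Leaving out 1 array gave 0 to 2 of the 9 genes and 0 to 3 of the 17 probe sets called. The deviations of same-numbered arrays correlated at 0.052 over genes, so the numbers are not taken as pairing the samples. The count of genes whose groups do not overlap was 3 as analysed, 5 with common-median scaling and 4 to 8 with 1 array left out, beside 41%, 43.4% and 59.9% to 83.1% of all genes. That of probe sets, in settings chosen after seeing the data, was 10 as analysed and 13 to 18 with 1 array left out, beside 39.2% and 62.8% to 76.9% of all probe sets. The median log2 difference of the 9 genes was 0.59 with common-median scaling, where the median of all genes was 0.25 against -0.07 as deposited, and -0.17 to 0.38 with 1 array left out. Averaging the probe sets turned the direction of Btg1 (0.25), Gadd45b (-0.13) and Mdm2 (-0.30). With 1 array left out, Btg2 ranged from -0.17 to 0.34, Gadd45b from -0.11 to 0.50, Ccng1 from -0.49 to 1.37 and Mdm2 from -0.41 to 0.94. Cdkn1a, Cdkn1b, Cdkn2c and Cdkn2d kept their direction in every alternative that gave a value. Cdkn2d gave none at a mean signal of at least 500. The causes were not tested.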

Other observations

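Pairs of p53 half-sites up to 13 bases apart were found in the promoter windows of 6 tested genes, Cdkn1a among them. Of the other five, Ifitm2, an interferon-inducible membrane protein, had a log2 difference of DSS minus untreated of 2.21 ± 0.53, Sptbn4, a spectrin, 1.12 ± 0.59, Dnajc7, a cochaperone, 0.95 ± 0.52, Pard3, a cell polarity protein, 0.25 ± 0.88 and Itm2a, a membrane protein, -0.06 ± 0.63 (SE, n = 2 per group). On 4 of the 6, both DSS arrays lay above both untreated arrays, beside 17.7% of the 10037 tested genes with a window. Limma called none of the 6 (smallest adjusted p = 0.619). The motif was chosen after the signals were known, those of Cdkn1a among them, so the count is a description and supports nothing. Whether the other genes passed the signal filter through the DSS arrays alone was not checked. The windows were not tested as a group.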
